A study of Schizosaccharomyces pombe with 4 samples.

Results

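The effect of genotype on how H3K9me3 changed after a tethered methyltransferase was switched off was described along the whole fission yeast genome. The quantity, called the interaction, is the change in clr3-CDx2 cells less the change in wild-type (wt) cells, where a change is the level in OFF cells minus the level in ON cells. It was computed for each tile of a genome tiling array from 4 of 4 arrays, with no tile chosen by a measured value. Of 41551 tiles in all, 41551 belong to the set, and 40565 carried no spot marked as non-uniform on any array and were used.

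The 4 groups were clr3-CDx2 OFF, clr3-CDx2 ON, wt OFF and wt ON, with 1 array each. All were Schizosaccharomyces pombe cells described as tetR-clr4 ON or OFF, tetR-clr4 being the methyltransferase Clr4 joined to the DNA-binding Tet repressor. ON cells came from exponential cultures in minimal medium at 32 °C, after 20 generations without thiamine and 5 generations in 5-fluoroorotic acid at 850 µg/ml, a compound toxic to cells that make the product of ura4. OFF cells were the remainder of such a culture, grown for 14 further generations with thiamine at 5 µg/ml and tetracycline at 2.5 µg/ml. Both were fixed in 3% paraformaldehyde, and 2 µg of an antibody against H3K9me3 was used on chromatin sheared to fragments near 1000 bp. The labels name clr3-CDx2 without saying what the allele changes, and they do not give the rest of either genotype, the site where TetR binds or the promoter of the fusion. OFF cells were harvested later than ON cells and after growth in 5-fluoroorotic acid had ended, and neither can be told apart from the switch.

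H3K9me3 marks heterochromatin, the compact and mostly silent part of the genome, which in fission yeast lies at centromeres, telomeres and the silent mating-type genes. Clr4 both writes the mark and binds it, so that marked nucleosomes can recruit the enzyme that renews the mark after DNA replication. Clr3 is a histone deacetylase that removes acetyl groups from histone H3 and limits the turnover of nucleosomes in heterochromatin. A Clr4 fusion that is tethered to DNA and then released is used to ask whether a heterochromatin domain is kept once the tether is gone, and the interaction asks whether the answer differs between the genotypes.

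A level here is the log2 ratio of ChIP to input signal less the median tile of its array, so that 0 is a typical tile. The median tile interaction over all 40565 tiles was 0.02, and over the 39341 arm tiles outside the regions named below the robust SD, from the median absolute deviation, was 0.26. That spread is between tiles and not between replicates, and no difference could be tested because each group had 1 array. The error model of the scanner software gave a median error of 0.43 for the interaction of 1 tile. Neighbouring arm tiles, which share DNA fragments, had interactions that correlated at r = 0.68 over 38548 pairs, and tiles 10 apart at r = 0.23 over 39311 pairs. The change in clr3-CDx2 and the change in wt, which share no array, correlated at r = 0.48 over 39341 arm tiles of the same 4 hybridisations. An interaction of at least 1, a factor of 2, was counted as higher, and one of -1 or less as lower.

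Of the 40565 tiles, 736 were higher (1.81%) and 226 were lower (0.557%). The higher tiles were unevenly spread. A single stretch of 170 tiles around ura4 held 164 of them, or 22.3%, and tiles within 15 kb of ura4 were higher in 100 of 101 cases. Subtelomeric clones held 63 higher tiles among 99, subtelomere I right 43 among 141 and the 3 pericentromeres together 29 among 242. The arms outside the regions, which here include the parts of the stretch more than 15 kb from ura4, held most of the higher tiles, 461 or 62.6%, but these were 1.17% of their 39341 tiles. They also held 224 of the 226 lower tiles. Chromosome III had higher tiles at 3.84% of its 7764 tiles, against 1.06% on chromosome I and 1.20% on chromosome II. Without the stretch around ura4 the value for chromosome III was 1.76%.

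**Figure D1:**
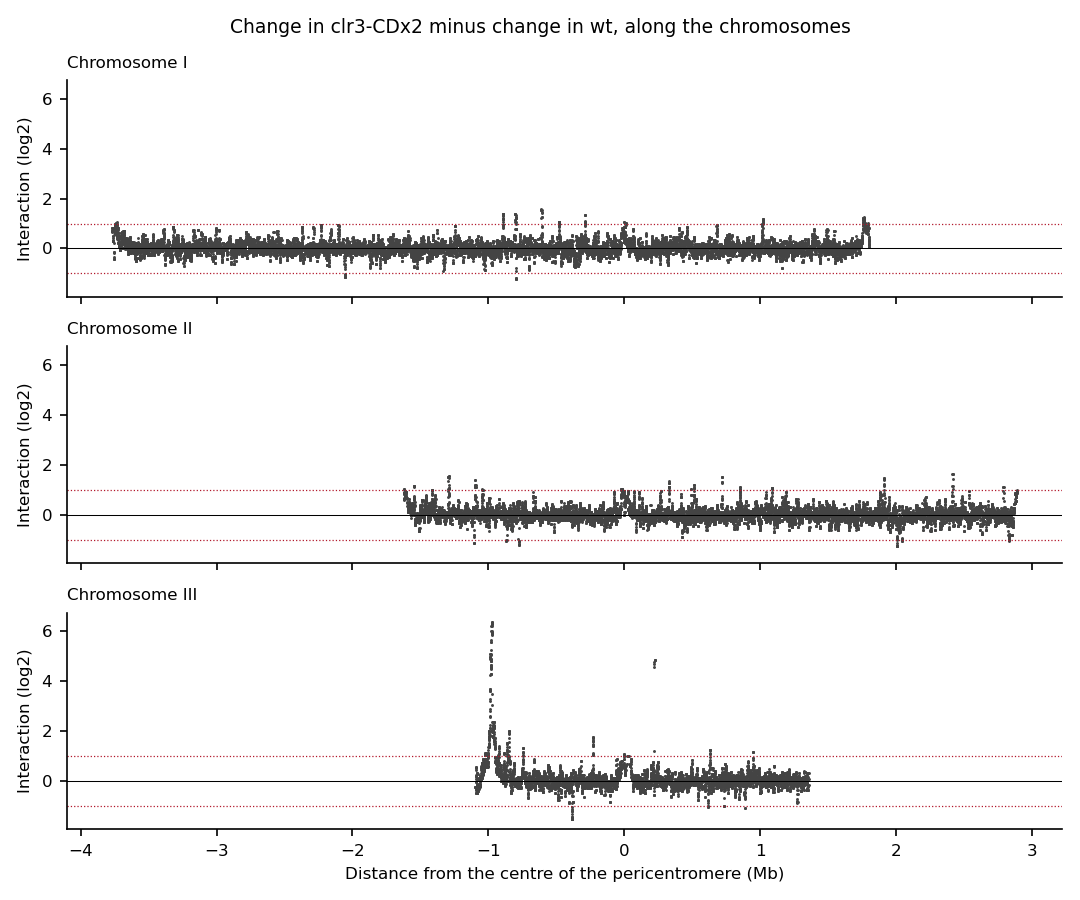
Interaction (log2, vertical axis, running median of 5 tiles) of each tile against its distance in Mb from the centre of the pericentromere (horizontal axis), with 1 panel per chromosome and dotted lines at 1 and -1. The tallest peak, on the left arm of chromosome III, lies around ura4, and the isolated points near 5 on its right arm are the ade6 tiles, with lower rises at the pericentromeres and at the ends of chromosomes I and II.

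The region within 15 kb of ura4 on chromosome III had a median level of 2.73 in clr3-CDx2 OFF, 2.36 in clr3-CDx2 ON, 0.05 in wt OFF and 2.85 in wt ON. The level was thus near that of a typical tile on the wt OFF array and far above it on the other 3. The median change was 0.62 in clr3-CDx2 and -2.97 in wt. The median tile interaction was 3.28, or 9.685-fold, with quartiles of 1.87 and 5.09, and 101 of 101 tiles lay above 0 against 52.9% of all tiles. Medians of tile differences need not equal differences of the medians, and more cells with the mark cannot be told apart from more of the mark in each cell. Seen the other way, the genotypes differed by 2.84 in OFF cells and by -0.58 in ON cells, so clr3-CDx2 was the lower genotype before the switch and the higher one after it.

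ura4 (SPCC330.05C), which encodes orotidine 5'-phosphate decarboxylase and is widely used as a reporter of silencing, read 4.24 in clr3-CDx2 OFF, 3.20 in clr3-CDx2 ON, 0.06 in wt OFF and 3.64 in wt ON over 3 tiles. Its change was 1.04 in clr3-CDx2 and -3.58 in wt, and its interaction was 4.62. pmp20 (SPCC330.06C), annotated as a thioredoxin-related chaperone, read 4.64, 3.18, -1.43 and 3.42 in the same order of groups and had the largest interaction of the 4659 genes measured, 6.31. Its wt OFF level was below that of a typical tile. The transporter gene SPCC330.07C read 5.03, 3.53, -0.01 and 4.43, with an interaction of 5.94. SPCC330.03C, a cytochrome b5 reductase gene on the other side of ura4, read 4.63, 3.45, 0.45 and 4.19, and mug135 read 4.27, 3.11, 0.99 and 4.25. Their interactions were 4.91 and 4.42. In these 5 genes the clr3-CDx2 OFF level was the highest of the 4 and the wt OFF level the lowest, and the change was 1.04 or more in clr3-CDx2 and -3.26 or less in wt. In mug135 the clr3-CDx2 OFF and wt ON levels differed by less than the error of 1 tile.

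In genes of the locus further from ura4, as in the 5 genes above, the change in wt was larger in size than that in clr3-CDx2. rhp7 and rhp16, whose products act in nucleotide excision repair, had changes of -0.05 and 0.43 in clr3-CDx2 and of -3.25 and -1.68 in wt, for interactions of 3.20 and 2.11. SPCC330.19C, an uncharacterised gene beside rhp7, had an interaction of 3.68 from a change of 0.12 in clr3-CDx2 and -3.56 in wt. On the right, alg11, a mannosyltransferase gene of N-glycan synthesis, enp2, an rRNA processing gene, and pcm1, the mRNA cap methyltransferase gene, had interactions of 1.94, 1.79 and 2.34. Their changes in clr3-CDx2 were 0.28, 0.05 and 0.14, against -1.65, -1.73 and -2.21 in wt. The change in clr3-CDx2 was within 0.5 of 0 in each of these outer genes, whereas in the 5 genes above both genotypes moved by more than 1 in opposite directions.

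The run of higher tiles around ura4 reached from array position 92400 to 144359 on chromosome III, 52.2 kb, and was the longest in the genome. Positions are those of the array design, whose genome build is not given in the sources used here. The run touched 27 protein-coding genes, 25 with at least 2 usable tiles, and 23 of the 25 had an interaction of at least 1. The definition of a run by tiles of that size fixes this count, so nothing is read from it beside the 59 of 4659 genes (1.27%) that reached 1 genome-wide. The other two, bcd1 and SPCC613.08 at its left edge, had 0.89 and 0.82. In 23 of the 23 the change in wt was the larger in size. The change in clr3-CDx2 was at least 1 in 5 of them and within 0.5 of 0 in 17.

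The right part of the run, 15 to 30 kb from ura4, differed from the core in clr3-CDx2. sry1, which encodes serine racemase, read 0.49 in clr3-CDx2 OFF, 2.83 in clr3-CDx2 ON, -0.80 in wt OFF and 3.29 in wt ON. It changed by -2.35 in clr3-CDx2 and by -4.09 in wt, so the level was lower in OFF cells of both genotypes and the interaction of 1.74 was a difference in the size of the loss. rpc37, a subunit gene of RNA polymerase III, and rpl2402, a ribosomal protein gene, changed by -0.73 and -0.89 in clr3-CDx2 and by -2.40 and -2.05 in wt. In the 3-kb stretch 21 to 24 kb right of ura4 the median change was -2.21 in clr3-CDx2 and -3.94 in wt. btb1 and sdh3, which lie between this stretch and the core, changed by -0.06 and -0.16 in clr3-CDx2 and by -2.02 and -2.45 in wt. The ON levels also differed there, since sdh3 read 1.34 in clr3-CDx2 ON and 2.63 in wt ON.

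**Figure D2:**
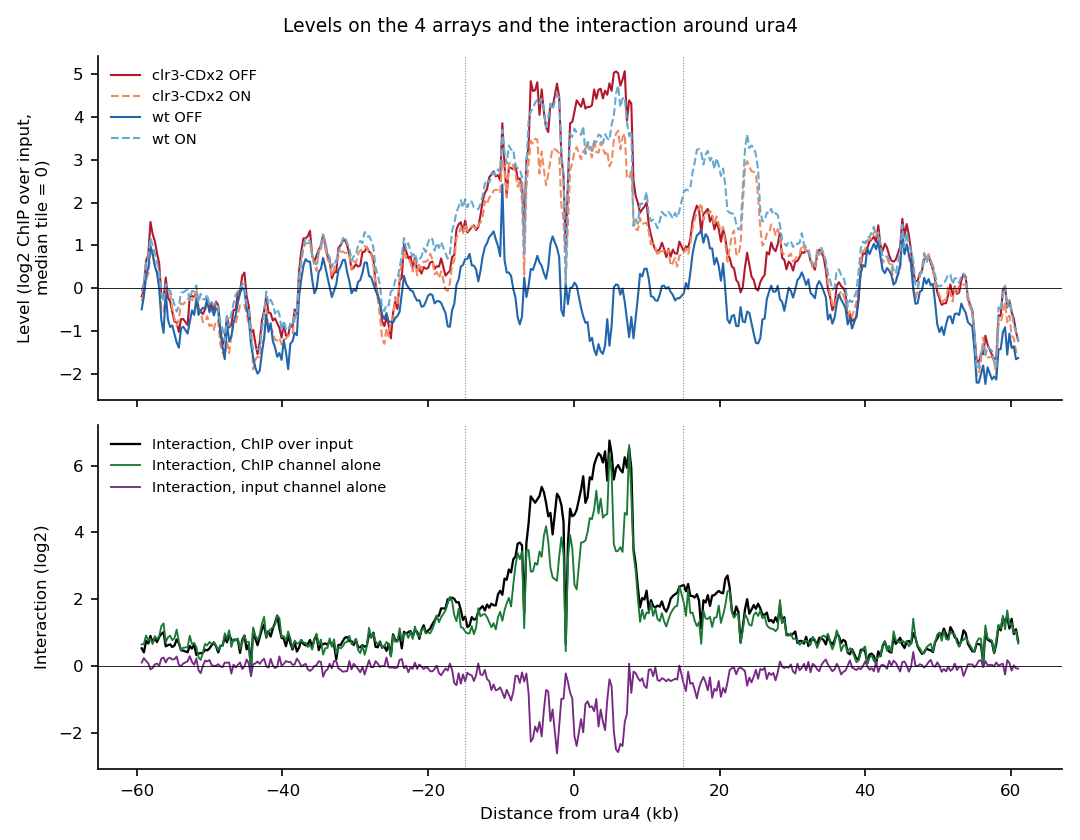
Level on each of the 4 arrays (top, log2 ChIP over input) and interaction of the ratio, of the ChIP channel alone and of the input channel alone (bottom, log2) against distance from ura4 in kb, 1 value per tile, with dotted lines 15 kb from ura4. Within 15 kb the wt OFF line, with a median level of 0.05, is the lowest of the 4 at nearly every tile, although it varies, with steps of 3 kb reading from -1.16 just right of ura4 to 1.1 on the left. The input line lies mostly below 0 there but is uneven, at -2.61 at its lowest and -0.40 at the tile with the largest interaction plotted, 6.75.

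Outside the run the interaction was smaller and stayed mostly positive, without falling steadily. To the right, its median was 0.78 at 30 to 33 kb, 0.77 at 33 to 36 kb, 0.43 at 36 to 39 kb and 0.36 at 39 to 42 kb. In 20-kb steps further to the right it was 0.72 at 40 to 60 kb, 0.27 at 60 to 80 kb, 0.29 at 80 to 100 kb and 0.26 at 100 to 120 kb. The step at 120 to 140 kb, which holds SPCC794.04C, read 0.89, and that at 140 to 160 kb read -0.03. To the left it lay between 0.62 and 0.98 in the 3-kb steps from 24 to 42 kb, and was 0.69 at 40 to 60 kb and 0.28 at 60 to 80 kb, and -0.15 at 80 to 100 kb, next to the end of the chromosome. At 40 to 60 kb to the right 64 of 64 tiles were above 0, and the change was 0.19 in clr3-CDx2 and -0.49 in wt. The ChIP channel alone gave 0.75 there and the input channel 0.01. Most of these tiles did not reach the size that counts: 13 of the 64 were higher.

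The input channel also differed between the arrays at many of the tiles with a large interaction. Input signal within 15 kb of ura4 had medians of -1.02 in clr3-CDx2 OFF, -0.94 in clr3-CDx2 ON, -0.35 in wt OFF and -1.15 in wt ON, relative to the median tile. Its own interaction was -0.70, and that of the ChIP channel alone was 2.44, so the ratio's value of 3.28 holds contributions from both channels. Over the 3 tiles of ura4 the input read -1.74, -1.32, 0.23 and -1.50 in the same order, with an interaction of -2.14 against 2.40 in the ChIP channel. 4 runs of lower input interaction were found in the genome, 3 of them inside the ura4 locus and 1 over ade6. What lowers the input signal at these tiles was not tested.

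ade6, the adenine synthesis gene whose loss gives red colonies, lies 1200.7 kb from ura4 on the same chromosome. It read 4.04 in clr3-CDx2 OFF, 2.24 in clr3-CDx2 ON, 0.58 in wt OFF and 3.55 in wt ON over 5 tiles. Its change was 1.80 in clr3-CDx2 and -2.97 in wt, and its interaction of 4.77 was the fourth largest of all genes. Of the 2 tiles just before the gene, the nearer had an interaction of 4.78 and the other, in bub1, one of 1.21. The 10 tiles in the 3 kb to the left, these 2 included, had a median interaction of 0.16, and the 10 tiles to the right, in vtc4, one of -0.07. A tile reports every copy of its sequence in the cell, and whether ade6 sequence was also present elsewhere in these strains is not given in the labels. The ChIP channel alone gave 2.32 for the gene and the input channel -2.30. Over the ade6 tiles the input read -1.36 in clr3-CDx2 OFF, -0.51 in clr3-CDx2 ON, 0.29 in wt OFF and -1.15 in wt ON, while the 10 tiles to the right read 0.40, 0.47, 0.40 and 0.38.

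**Figure D3:**
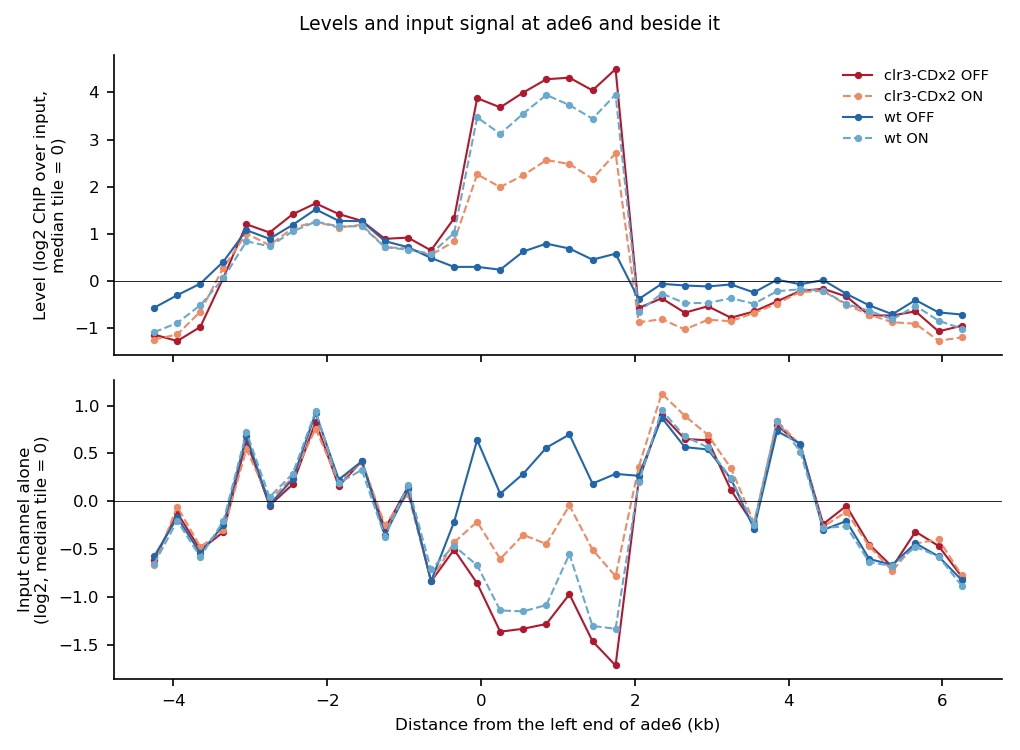
Level (top, log2 ChIP over input) and input signal alone (bottom, log2) on the 4 arrays against distance from the left end of ade6 in kb, 1 point per tile. Beyond the 2 tiles just before the gene the levels of the 4 arrays differ by less than 1 at each flanking tile, and they lie further apart over ade6, where clr3-CDx2 OFF is the highest in level and the lowest in input and wt OFF is the lowest in level and the highest in input.

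Among the 4659 of 5124 protein-coding genes with at least 2 usable tiles, 33 had an interaction of at least 1 and reached a level of 1 on at least 1 array (0.708%). None was lower by the same rule (0.0%), though 3 were with pericentromeres made equal and 2 after normexp, and the lowest interaction among the 707 genes that reached 1 was -0.48, at num1. Of the 33 genes, 21 lie in the run around ura4, of which 12 are within 15 kb of it. Another 4 lie in subtelomere I right, 6 on arms elsewhere and the others in subtelomeres I left and II left. The 6 on arms are ade6, rsv2, agl1, cts2 and the mating-type genes mat1-Mc and mat3-Mc on chromosome II, whose tiles are repeated. The change in wt was -1 or less in 22, the change in clr3-CDx2 was 1 or more in 15, and 6 met both. Those 6 were ura4, pmp20, SPCC330.07C, SPCC330.03C, mug135 and ade6. With no condition on the level, 59 genes were higher (1.27%) and 6 were lower (0.129%). Just above the size that counts lay SPAC186.03, nip7 and mat1-Mc, at 1.06, 1.06 and 1.02, and just below it SPAC22F8.05, SPAC186.02C and ftm2, at 0.9997, 0.97 and 0.96. These 6 are named for their place beside the threshold.

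**Figure D4:**
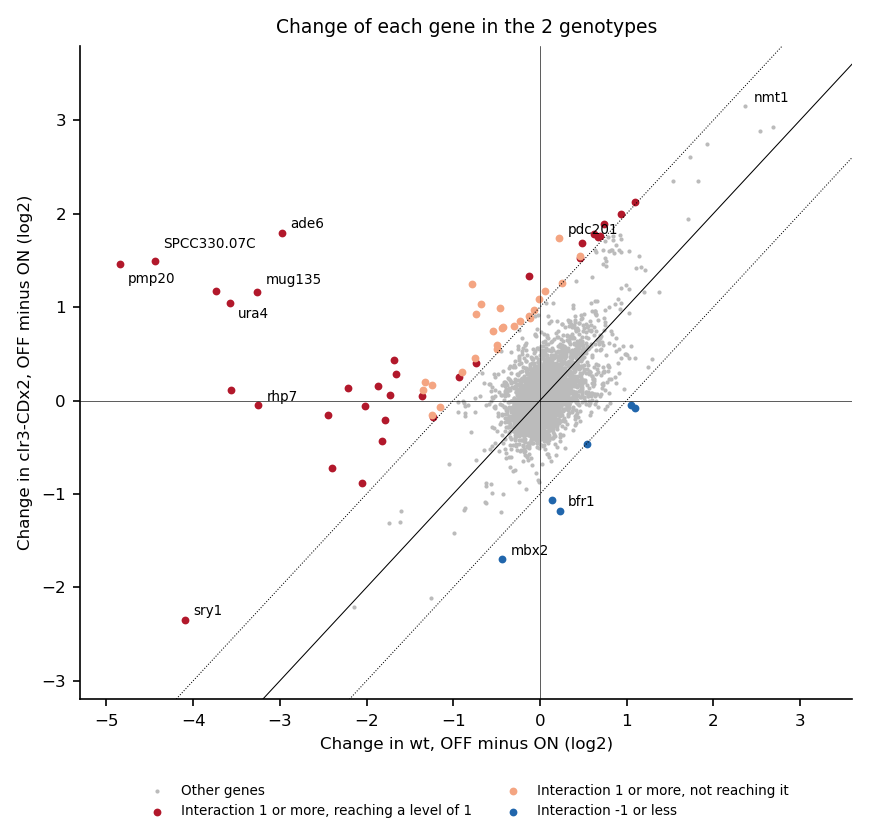
Change from ON to OFF of each of the 4659 genes in clr3-CDx2 (vertical axis, log2) against the change in wt (horizontal axis, log2), with the line of equal change and dotted lines where the interaction is 1 or -1. The genes around ura4 and ade6 extend to the left, some above 0 and some near 0 on the vertical axis, sry1 lies low on both axes, and thiamine genes such as nmt1 lie high on both.

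Constitutive heterochromatin showed a smaller and different pattern, in which the level was higher in OFF cells of both genotypes. Over the 242 usable tiles of the 3 pericentromeres, the stretches without protein-coding genes around each centromere, the median level was 1.78 in clr3-CDx2 OFF, 0.08 in clr3-CDx2 ON, 1.79 in wt OFF and 0.92 in wt ON. The OFF levels of the 2 genotypes differed by a median of -0.14 and the ON levels by -0.77. The changes were 1.39 in clr3-CDx2 and 0.73 in wt, and the interaction was 0.66, with 236 of 242 tiles above 0 and 29 (12%) at 1 or more. Chromosomes I, II and III gave 0.56, 0.72 and 0.62. The genotypes thus differed here mainly in ON cells, whereas around ura4 they differed mainly in OFF cells. The 75 tiles on sequence found once gave 0.57 and the 167 repeated tiles 0.69, although their levels in clr3-CDx2 OFF were 1.14 and 2.52. The 41 tiles found once in pericentromere II read -1.48, -2.34, -1.13 and -1.78 in the same order of groups, with 0.53. The 58 repeated tiles of pericentromere I read -0.24, -1.48, -0.4 and -0.8, with 0.56. The other tiles, split in this way by chromosome, had medians above 0 on each array. Over all 242 tiles the ChIP channel alone gave 0.29, the input channel -0.30 and a normexp background correction of the ratio 0.34. The mitochondrial genome, which has no nucleosomes, gave 0.37 over 53 tiles. A rise in both genotypes was not confined to heterochromatin. The changes in clr3-CDx2 and wt were 0.62 and 0.24 in the mitochondrial genome. Over 12 euchromatic control genes such as act1 their medians were 0.53 and 0.3, and over the arm tiles 0.05 and 0.03.

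Subtelomere I right, the outer 50 kb of that chromosome end, had the largest interaction of the 4 subtelomeres placed on chromosomes in the centred ratio, a rank that did not hold under each scaling. Its levels were 4.52 in clr3-CDx2 OFF, 2.85 in clr3-CDx2 ON, 1.75 in wt OFF and 0.87 in wt ON, so the clr3-CDx2 arrays were above the wt arrays both before and after the switch. The changes were 1.67 and 0.82 and the interaction 0.83, with 43 of 141 tiles at 1 or more (30.5%). By distance from the end in 10-kb steps, the interaction was 0.43, 0.82, 0.76, 0.85 and 1.09, and it was 0.33 at 50 to 60 kb and 0.22 at 60 to 70 kb. In the step at 40 to 50 kb the levels were 3.93 in clr3-CDx2 OFF, 2.16 in clr3-CDx2 ON, 0.82 in wt OFF and 0.24 in wt ON. Of its 141 tiles 93 were on sequence found once, and these gave 0.90. gdt1 and the uncharacterised SPAC186.04C lie in a run of 23 higher tiles there. They read 4.49 and 4.89 in clr3-CDx2 OFF against 1.0 and 1.33 in wt OFF, with interactions of 1.16 and 1.20. In the ChIP channel alone these 2 genes gave 0.34 and 0.31, and in the input channel -0.72 and -0.82. SPAC186.03, an L-asparaginase gene in the same run, had 1.06, and SPAC186.02C, a hydroxyacid dehydrogenase gene in the run of 11 tiles beside it, 0.97. The direction at this end depended on scaling. In 1 alternative each array was multiplied so that its median over all pericentromere tiles, marked spots included, was the same. The interaction at this end was then -0.45, against -0.03 at subtelomere I left and 0.18 over both ends of chromosome II. The normexp correction gave 0.29, against 0.58 at subtelomere I left, and the ChIP channel alone 0.37.

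Subtelomere I left read 3.50 in clr3-CDx2 OFF, 1.95 in clr3-CDx2 ON, 2.01 in wt OFF and 1.32 in wt ON, with an interaction of 0.65 that became -0.03 with pericentromeres made equal. 110 of its 127 tiles were repeated. The ends of chromosome II gave 0.41 on the left and 0.13 on the right. There the repeated tiles, which cannot be assigned to 1 end, gave 0.77 and 0.72, and the tiles found once gave 0.30 and -0.04. Subtelomeric clones, short sequences from chromosome ends that are not placed in the assembly, gave 1.22 over 99 tiles. Their 59 repeated tiles gave 1.39 and the other 40 gave 0.07. The clones read 3.87 in clr3-CDx2 OFF, 1.18 in clr3-CDx2 ON, 3.68 in wt OFF and 2.34 in wt ON, an ON difference of -1.18 and an OFF difference of 0.14. 6 runs of higher tiles lay on them, with interactions from 1.29 to 1.47, and since the clones share sequence these are not 6 separate observations. The ChIP channel alone gave 0.46 over the clones and 0.41 to 0.87 over these runs. The input channel gave -0.61 over the clones and -0.61 to -0.88 over the runs.

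The ends of chromosome III, which border the rDNA arrays, had a median interaction below 0. They read -1.31 in clr3-CDx2 OFF, -0.89 in clr3-CDx2 ON, -0.11 in wt OFF and 0.51 in wt ON over 112 tiles, with an interaction of -0.11 and 44 tiles above 0. Over both ends together the input signal was above that of the median tile on each array, at 1.18, 0.87, 0.85 and 0.63. The genotypes differed there by about the same amount in OFF and ON cells, -1.41 and -1.45. The 2 ends were unlike. The input read 1.58, 1.33, 1.23 and 1.04 on the left and 0.34, 0.15, -0.24 and 0.03 on the right. The genotypes differed by -1.81 in OFF and -1.63 in ON cells on the left, and by -0.47 and -0.32 on the right. The sign of the interaction over both ends was not stable, since the ChIP channel alone gave 0.13, tiles on sequence found once 0.01, and equal pericentromeres 0.39.

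The mating-type contig, a separate sequence on the array that holds the silent mating-type genes, had an interaction of 0.26 over 87 of its 110 tiles. It was uneven along its length. In 3-kb steps the interaction lay between -0.28 and 0.39 over the first 21 kb, was 0.93, 0.64, 0.77, 0.77, 1.12 and 0.66 over the next 18 kb, and was 0.21 in the last step. The steps of the stretch with the larger values hold 1 to 8 usable tiles each. In these steps the ChIP channel alone gave 0.53, 0.12, 0.01, 0.25, 0.28 and -0.08. The input channel gave -0.59, -0.24, -0.55, -0.53, -0.9 and -0.75, so the ratio there holds a large contribution from input. That stretch read 4.92 to 6.26 in clr3-CDx2 OFF and 2.80 to 4.79 in clr3-CDx2 ON, against 5.05 to 6.26 in wt OFF and 4.0 to 5.57 in wt ON. On chromosome II, mat1-Mc and mat3-Mc, the mating-type genes with at least 2 usable tiles, had interactions of 1.02 and 1.06. mat1-Mc read 4.74 in clr3-CDx2 OFF, 2.62 in clr3-CDx2 ON, 4.80 in wt OFF and 3.70 in wt ON. Their tiles are repeated between the mating-type cassettes, so the 2 genes are not separate measurements.

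**Figure D5:**
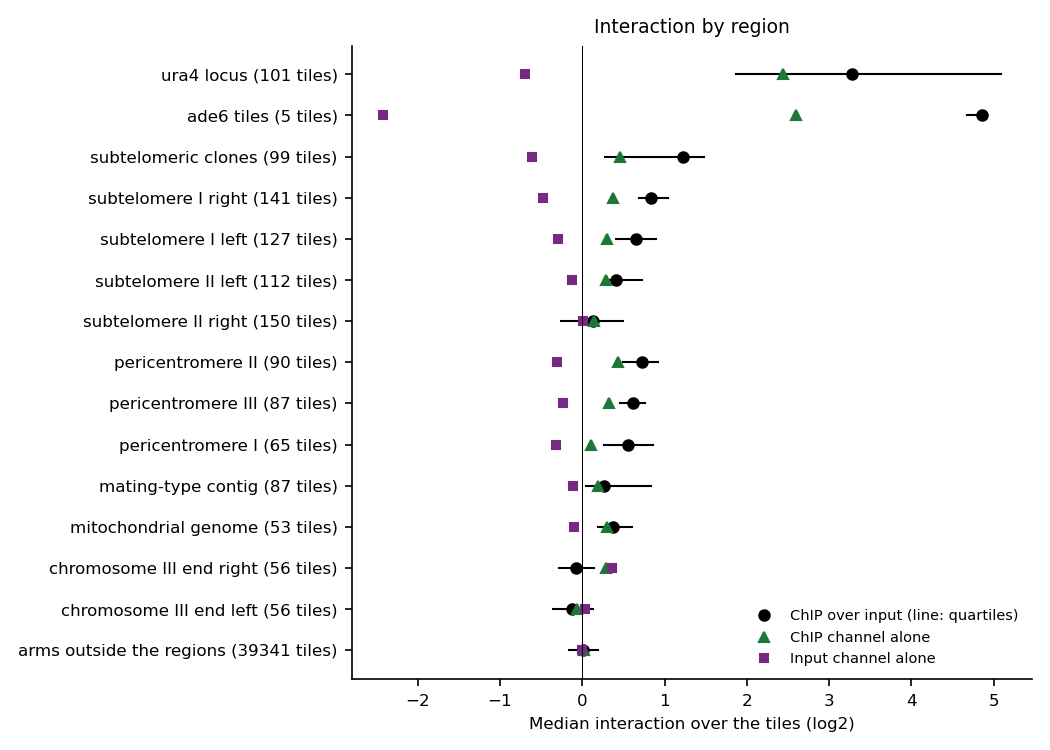
Median interaction over the usable tiles of each region (horizontal axis, log2), as the ratio of ChIP to input with its quartiles, in the ChIP channel alone and in the input channel alone. The ura4 locus and the ade6 tiles stand at 3.28 and 4.86, the subtelomeric clones at 1.22, the other heterochromatic regions between 0.13 and 0.83, and the chromosome III ends and the arms near 0.

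Heterochromatic tiles read higher on average than arm tiles, and above a mean level of 0 the interaction was larger where the mean level was larger. Arm tiles with a mean level between 0 and 1 had a median interaction of 0.01 and those between 1 and 2 one of 0.07. The 191 arm tiles between 2 and 3 had 0.19 and the 37 above 3 had 0.77. For all tiles, the 426 between 2 and 3 had 0.66 and the 276 above 3 had 0.83. Below 0 this order did not hold. Among arm tiles below -2 the median was 0.26 over 461 tiles, against 0.05 between -2 and -1 and -0.04 between -1 and 0. Tiles of mat1-Mc and mat3-Mc, genes that read 2.58 or more on each array, are counted with the arms. The arm values therefore do not separate level from heterochromatin.

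Of the 36 runs of higher tiles, 25 lay on chromosome arms outside the ura4 locus and the fixed regions, that of ade6 among them. A run was at least 5 neighbouring tiles at 1 or more after a running median of 3 tiles. 20 of the 25 had a positive change in clr3-CDx2 and a negative one in wt, 4 had both positive and 1 had both negative. The rule for a higher run favours the first of these patterns. The change in clr3-CDx2 was the larger in 15 and that in wt in 10. In 9 of them the median level reached 1 on at least 1 array, and in the other 16 it was below 1 on all 4. Of the 4 with both changes positive, 2 also reached 1. One, over mat3-Mi and mat3-Mc, read 4.69 in clr3-CDx2 OFF, 2.58 in clr3-CDx2 ON, 4.69 in wt OFF and 3.79 in wt ON, and 4 of its 8 tiles are repeated. The other, at SPBPB21E7.09, read 3.64, 1.96, 0.79 and 0.22. Both were named after their values were seen. In 20 of the 25 the input interaction was within 0.3 of 0, and in the others it ran from -0.32 at cts2 to -2.18 at ade6. Over the 39341 arm tiles the robust SD of the input interaction was 0.13, so that range is wide beside the arm tiles. 9 of the 36, that of ura4 included, were on the left arm of chromosome III, which holds 3595 of the 41551 tiles.

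After the run around ura4, the longest on an arm was that of SPCC63.13 and eis1, a chaperone gene and an eisosome gene, at array positions 861900 to 866759 on chromosome III. Its 17 tiles read 0.85 in clr3-CDx2 OFF, -0.19 in clr3-CDx2 ON, -0.14 in wt OFF and 0.47 in wt ON, with an interaction of 1.52. mug153 and tps3, the second a gene of trehalose synthesis, read -0.74, -1.62, -1.17 and -0.64 over 15 tiles on chromosome I, with 1.34. pdr1 and agl1, an ABC transporter and a maltose glucosidase gene, read 1.07, 0.47, -0.17 and 0.59 over 15 tiles, with 1.26. The highest arrays in these 3 runs were clr3-CDx2 OFF or wt ON, and the lowest were clr3-CDx2 ON or wt OFF. The definition of the interaction favours that order, so nothing is read from it. pdc201, a pyruvate decarboxylase gene, and lsd90 differed from them in having positive changes in both genotypes, of 1.79 and 1.55 in clr3-CDx2 and 0.26 and 0.47 in wt over their runs, for interactions of 1.5 and 1.13.

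fet4, an iron and zinc transporter gene, and ght1, a glucose symporter gene, were cases in which wt carried the change. The fet4 run read 0.42 in clr3-CDx2 OFF, 0.24 in clr3-CDx2 ON, -1.17 in wt OFF and 0.00 in wt ON, with 1.35, and the ght1 run read 0.01, -0.06, -1.25 and -0.16, with 1.42. In both the wt OFF array stood apart from the other 3. fhn1, another eisosome gene, read -0.85, -1.73, -1.39 and -1.03, with 1.21. SPCC794.04C, a transporter gene 132.6 kb from ura4, had the largest interaction of any arm run apart from ura4 and ade6, 1.89 over 9 tiles, from levels of 0.61, -0.63, -0.79 and -0.23. It was singled out after its value was seen. A run of 6 tiles on chromosome II at array positions 2340000 to 2341559, with no protein-coding gene but with the long non-coding RNA SPNCRNA.1506 among its 3 annotated lncRNAs, read 1.97, 0.72, 1.28 and 1.35, with 1.41. rsv2, a gene for a DNA-binding transcription factor, read 1.23, -0.10, 0.75 and 0.88. These last 2 were also chosen after their values were seen, and in them the clr3-CDx2 ON array was the low one.

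Only 5 runs were lower, and none coincided with a heterochromatic region fixed here. The longest was at bfr1, the gene of a drug efflux transporter, on chromosome III, whose 17 tiles read -1.55 in clr3-CDx2 OFF, -0.25 in clr3-CDx2 ON, -0.66 in wt OFF and -0.95 in wt ON, with an interaction of -1.44. The other runs, named because there were so few, covered mbx2 with -1.24, rlp7 and rad9 with -1.15, mfs3 with -1.14, and a stretch of chromosome I between array positions 2975100 and 2976359 with -1.22. That last stretch holds the lncRNA genes SPNCRNA.866 and SPNCRNA.867 and was the only lower run to reach a level of 1. It read -1.65 in clr3-CDx2 OFF, 2.20 in clr3-CDx2 ON, -1.60 in wt OFF and 1.03 in wt ON, so that the level was low in OFF cells of both genotypes and the ON levels differed. mbx2, a MADS-box transcription factor gene, also differed between genotypes mainly in ON cells, at -1.94, -0.24, -2.29 and -1.85 for the gene as a whole. Its level was below 0 on each array, and its change was -1.70 in clr3-CDx2 and -0.44 in wt. The 6 genes lower at any level were bfr1, mbx2, mfs3, rps27, rlp7 and SPBC577.03C, with interactions of -1.41, -1.26, -1.20, -1.18, -1.10 and -1.01.

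Gene lists were described by counts and medians beside those of all 4659 genes, whose median was 0.00 and of which 49.4% were above 0. The 9 thiamine-repressed genes, which cells turn off when thiamine is present, had a median change of 1.24 in clr3-CDx2 and 1.20 in wt. Their median interaction was 0.24, 6 of 9 were above 0, and none was higher or lower. nmt1, whose thiamine-repressed promoter is widely used to control transgenes, read 0.42 in clr3-CDx2 OFF, -2.73 in clr3-CDx2 ON, 0.14 in wt OFF and -2.23 in wt ON, and thi9, a thiamine transporter gene, read 0.50, -2.24, 0.14 and -1.79. Their interactions were 0.78 and 0.81. Thiamine is added at the switch itself.

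The 13 genes of facultative islands and meiosis, many of which carry H3K9me3 in growing cells, had a median interaction of -0.29, with 10 of 13 below 0 and 1 lower. Their median change was -0.46 in clr3-CDx2 and -0.29 in wt. mei4, the master regulator of meiotic transcription, read -0.77 in clr3-CDx2 OFF, 0.22 in clr3-CDx2 ON, -0.51 in wt OFF and -0.08 in wt ON, with an interaction of -0.57. ssm4 read -0.07, 0.69, -0.09 and 0.23, with -0.44, and num1 read -0.01, 1.09, 0.02 and 0.64, with -0.48. In these 3 genes the clr3-CDx2 ON array was the highest of the 4. rec8, a meiotic cohesin gene, had 0.27.

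Of 7 pyrimidine synthesis and salvage genes measured, ura4 alone was higher, and the median of the list was -0.21. The other 6 lay between -0.53 at ura3 and 0.18 at ura2. The 22 heterochromatin factor genes measured had a median of -0.03. clr3 itself read -1.32 in clr3-CDx2 OFF, -1.39 in clr3-CDx2 ON, 0.65 in wt OFF and 0.55 in wt ON over 8 tiles. The genotypes differed there by -1.97 in OFF and -1.94 in ON cells, so the interaction was -0.04, or 0.79 with pericentromeres made equal. clr4, the endogenous methyltransferase gene, had an interaction of 0.04, with levels of 1.44, 1.18, 1.36 and 1.14. The 10 measured Tf2 retrotransposons had a median of 0.07 and a range from -0.15 to 0.30. The 12 euchromatic controls, such as act1 and adh1, had a median of 0.09, with -0.41 at tef3 and 0.96 at pgk1 as the extremes.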

How the data were processed

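H3K9me3 ChIP DNA (Cy5, red) and whole-cell extract input DNA (Cy3, green) of the same cells were hybridised together to a custom array of 60-base tiles about 300 bp apart. A single slide carried the 4 arrays, and a single scan read them. Per the file headers, the authors' scanner files hold spot and background intensity, a dye-normalised processed intensity per channel, a log10 ratio of the processed intensities with another value for its error, and marks for non-uniform, saturated or dim spots, all from Agilent Feature Extraction 12.0.3.1. The deposited log2 ratios of the series matrix equalled log2 of processed red over green to within 0.001 on 41551 tiles of each array. Their medians, which show that they are not centred, were 0.1846 in clr3-CDx2 OFF, 0.2965 in clr3-CDx2 ON, 0.1734 in wt OFF and 0.2336 in wt ON. No tile was saturated, and the median ChIP and input signals were 136.6 to 166.3 and 417.1 to 489.6 times background.

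The log2 ratio was computed from the processed intensities of tiles that are not controls, less the array's median, with no loess or quantile step. Tiles marked non-uniform on any array were left out. A gene's level is the median over at least 2 tiles, and its interaction is that of these levels. Each arm was placed on the ASM294v3 reference by the offset, from -1550 to 4500 bp, at which input signal best matched GC content (correlation 0.216 to 0.271, against at most 0.095 beyond 1 kb), and gene names and products come from that annotation. The offset sets which tile falls in which gene. It also sets which tiles fall in a pericentromere or within 15 kb of ura4, and which 31-base words a tile is given. The interaction of a tile and the chromosome ends do not depend on it. Repeated tiles carry the array's mark for repeats or lie mostly on 31-base words found more than once. A pericentromere was the longest interval of a chromosome without a protein-coding gene, a subtelomere the outer 50 kb, and a chromosome III end the outer 25 kb. The steps were tested on simulated data. Python 3.11.15, pandas 2.3.3, numpy 2.4.6, scipy 1.17.1, R 4.3.3 and limma 3.58.1 were used.

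With 1 array per group no test was possible, and values are set beside those of all tiles or genes. The regions, lists and rules were chosen with earlier results of these data known. Named genes are the 10 largest interactions in each direction among genes counted, those within 15 kb of ura4, ade6, clr3 and clr4, list members and genes in runs of 10 or more tiles, with exceptions stated where they occur. Alternatives changed the marked spots, the centring, the scale, the channel, the background correction (normexp of limma with offset 50, on median signals because the files hold no mean signals), the repeated tiles, the size that counts, the distance from ura4 and the running median. The number of arrays limits the precision. A gene that meets this rule is not reported here.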

Additional observations from a re-analysis of the deposited data

Results flagged for a closer look

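In 6 genes the change went one way in clr3-CDx2 and the other way in wt, by at least 1 on the log2 scale in each, and since each group had 1 array the difference was not tested. Their interactions were 6.31 in pmp20, 5.94 in SPCC330.07C, 4.91 in SPCC330.03C, 4.77 in ade6, 4.62 in ura4 and 4.42 in mug135. The change was 1.46, 1.5, 1.18, 1.80, 1.04 and 1.16 in clr3-CDx2, against -4.85, -4.44, -3.74, -2.97, -3.58 and -3.26 in wt, in the same order of genes. All but ade6 lie within 15 kb of ura4. The input channel moved at the same tiles, with interactions of -1.46, -2.24, -2.15, -2.30, -2.14 and -1.47, and its part in the ratio was not tested. The ChIP channel alone gave 4.79, 3.76, 2.83, 2.32, 2.40 and 2.80, positive in each.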

How the results depend on the processing

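No paired analysis was possible because each group had 1 array, and no array could be left out. Of 97 recomputed values of the counts and regions, 76 stayed close to the values reported and 21 moved. Of 105 for the 15 named genes followed here, 81 stayed close and 24 moved. Close meant within a factor of 1.5, for an interaction a shift of less than log2 of 1.5, so small interactions could halve or change sign. Values counted as close include -0.11 becoming 0.39 at the chromosome III ends with pericentromeres equal, and 0.83 becoming 0.29 at subtelomere I right after normexp. To make pericentromeres equal, each array was multiplied so that its median over all pericentromere tiles, marked spots included, was the same. The usable pericentromere tiles were not levelled by this, and their interaction was 0.84, against 0.66 in the main setting. This scaling gave 1695 higher tiles (89.4% of those counted, against 76.5%), 20 higher and 3 lower genes and 104 runs. It gave 2.26 at the ura4 locus, 3.72 at ade6, -0.029 at subtelomere I left and -0.45 at subtelomere I right. The normexp correction gave 1429 higher and 896 lower tiles (61.5% higher), 46 higher and 2 lower genes, 95 runs and 4.15 at the ura4 locus. The ChIP channel alone gave 21 higher genes, 26 runs, 2.44 at the ura4 locus and 2.32 at ade6. A size of 1.5 left 231 higher tiles, 32 lower tiles and 18 higher genes, and a distance of 5 kb gave 5.18 at the ura4 locus. Of the 33 higher genes, 18 were also counted with pericentromeres equal, 19 in the ChIP channel, 28 after normexp and 32 with marked spots kept, with the mode as centre or without centring. The input channel alone, chosen after the data were seen, gave -0.70 at the ura4 locus, -2.30 at ade6, -0.30 at the pericentromeres and at subtelomere I left and -0.48 at subtelomere I right. In that channel pmp20 gave -1.46, SPCC330.07C -2.24, SPCC330.03C -2.15, ura4 -2.14, mug135 -1.47, SPCC330.19C -0.40, rhp7 -0.77, pcm1 -0.44, sdh3 -0.81, rhp16 -0.51, alg11 -0.20, enp2 -0.41 and btb1 -0.69. The causes were not tested. The number of arrays, 1 per group, limits the precision. The median spot was between 136.6 and 166.3 times background in the ChIP channel, and the part of dim spots in the values that moved was not tested.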

Other observations

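The 53 usable tiles of the mitochondrial genome, which has no nucleosomes, had an interaction of 0.37, with 48 tiles above 0. Their levels were -2.50 in clr3-CDx2 OFF, -3.16 in clr3-CDx2 ON, -2.72 in wt OFF and -2.95 in wt ON. The change was 0.62 in clr3-CDx2 and 0.24 in wt, and the ChIP channel alone gave 0.30 and the input channel -0.10.

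The run of 9 higher tiles at pericentromere II, between array positions 1601100 and 1603559, covers tRNA genes for alanine, valine, glutamate, arginine and aspartate and no protein-coding gene. It read 2.36 in clr3-CDx2 OFF, 0.60 in clr3-CDx2 ON, 2.32 in wt OFF and 1.32 in wt ON, with an interaction of 1.05, and 7 of its 9 tiles are repeated. On the arms, the genes gpd1, a glycerol-3-phosphate dehydrogenase gene, and pil1, an eisosome gene like eis1 and fhn1, had interactions of 1.67 and 1.28 at levels below 0 on each array. gpd1 read -0.96 in clr3-CDx2 OFF, -1.89 in clr3-CDx2 ON, -1.89 in wt OFF and -1.15 in wt ON, and pil1 read -1.34, -2.08, -1.83 and -1.29. tps1, which encodes trehalose-phosphate synthase, and ntp1 had 1.22 and 1.04, beside 1.45 at tps3. These genes were picked after their values were seen, and no enrichment was tested.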
